A study of Mus musculus with 10 samples.

Results

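Mucin genes encode long proteins whose serine- and threonine-rich stretches carry dense O-linked sugars. Gel-forming mucins are secreted and build the mucus of airways and gut, while membrane-bound mucins stay on the apical cell surface, where they shield the epithelium and shed their outer part. In the lung, goblet and club cells of the airways are the known sources of secreted mucins, whereas Muc1 is a surface mucin of type 2 alveolar epithelial cells (AEC2s), the surfactant-producing cells of the alveolus. The 9 genes described here were Muc1, Muc4, Muc13, Muc15, Muc16 and Muc20 of the membrane-bound class and Muc2, Muc5ac and Muc5b of the gel-forming class. They were chosen by symbol, from probe sets annotated with exactly 1 gene, and 8 of the 9 had such a probe set, out of 22180 genes measured. Muc20 had none of its own and is treated with Muc4.

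Expression was measured on 10 Affymetrix arrays of sorted mouse lung cells from postnatal day 4, 5 of each of 2 populations that the labels call AEC2s. Axin2+ cells came from mice labelled Axin2CreERT2-TdTom (Axin2CreERT2-TdTomato elsewhere in the labels), in which a tamoxifen-dependent Cre follows the Wnt target gene Axin2. They were sorted for TdTomato and EpCAM, an epithelial surface protein, and against CD31 and CD45, of endothelium and leukocytes. SP-C+ cells came from SftpcCreERT2-R26REYFP mice, in which the same kind of Cre follows the surfactant protein C gene, and were sorted for YFP after 24 h of lineage tracing. Both lines were on a mixed strain background of C57BL/6 with 129S6 and CD-1, and the labels record no treatment. The comparison sets AEC2s labelled as Wnt-responsive against AEC2s as a whole, but line, reporter and gate differ together with the population, so they cannot be told apart. The gate named for Axin2+ cells holds no AEC2 marker. No label says that replicates were separate animals, so the p-values measure the spread between these samples, which may be technical in part. Signal of Y-linked genes, given below, was both low and high within each group. The arrays of a group were thus not all repeats of the same sample. A description shared by all samples also mentions other ages, and the titles and age labels, which say day 4, were followed.

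All values are the deposited log2 values. Array medians over all probe sets lay between 5.89 and 5.97. Medians over genes, which median centring below sets equal, were 6.37 to 6.43 in Axin2+ and 6.27 to 6.32 in SP-C+ arrays, without overlap. Arrays correlated at 0.993 to 0.995 within Axin2+, 0.987 to 0.993 within SP-C+ and 0.973 to 0.983 between them. The gene Axin2 itself averaged 7.93 ± 0.12 in the arrays labelled Axin2+ and 8.46 ± 0.06 in those labelled SP-C+ (SD, n = 5 each), an Axin2+ minus SP-C+ difference of -0.53 ± 0.08 SE on log2 values (adjusted p = 3.28e-04 over all genes in limma, a linear model fit) against the direction of the label, so every direction here is between labelled arrays. Sftpc averaged 14.11 ± 0.03 in Axin2+ and 14.02 ± 0.03 in SP-C+ arrays and did not pass. The mean of 3 Y-linked genes was 3.87, 8.85, 3.94, 9.24 and 4.02 in Axin2+ replicates 1 to 5. In SP-C+ replicates 1 to 5 it was 7.11, 9.34, 9.08, 4.06 and 9.42. Low values thus fell on more Axin2+ than SP-C+ arrays, and the groups were not balanced in Y-linked signal. The 3 genes differed by -1.62, -1.83 and -2.00 between the groups, with SDs of 2.10 to 2.93, and 0 of the 3 were called. With their mean as a covariate 0 mucin genes were called higher and 0 lower.

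SP-C+ replicate 1 lay outside the range of the other 4 SP-C+ arrays for 6 of the 8 mucin genes measured. This was not counted over all genes or for the other arrays, so it is not shown to be particular to mucins or to this array. SP-C+ replicate 1 also stood apart in marker genes of other cell types. The mean of 15 endothelial markers was 6.41 to 6.59 in Axin2+ arrays, against 7.38 in SP-C+ replicate 1 and 6.29 to 6.76 in the other SP-C+ arrays. The mean of 25 leukocyte markers was 5.84 in it and 5.50 to 5.57 in the other SP-C+ arrays, and that of 16 mesenchymal markers 6.37 against 5.82 to 6.03. Markers of AEC1s, the flat gas-exchange cells, averaged 9.63 in it against 9.09 to 9.19. The part of these in the mucin values was not tested. Without this array 0 mucin genes were higher and 0 lower in limma.

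No mucin gene passed the threshold used, a limma adjusted p under 0.05 over all genes. Of the 8 measured, 0 were higher and 0 lower in Axin2+ arrays, where 17.6% of all genes were called (8.61% higher and 8.95% lower), although 5 of the 8 were called lower after each array was centred on its median. At an unadjusted p under 0.05 in the same limma fit, 1 of the 8 passed (Muc1), against 29.3% of all genes. Muc5b, Muc2 and Muc13 lay just above this cut, at 0.05001, 0.0561 and 0.0602. Exact permutation tests gave an unadjusted p of 0.0238 for Muc1 and Muc13, 0.0397 for Muc2 and 0.0873 or higher for the others. They were not run over all genes. In 0 of the 8 were the 2 sets of arrays free of overlap, against 15.0% of all genes (7.38% higher and 7.66% lower). Differences, given throughout in log2 units with SP-C+ subtracted from Axin2+, were below 0 for 6 members and above 0 for 2, with a median of -0.16. Over all genes the median was -0.04 and 60.1% lay below 0.

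The intervals bound how far the signals differed on the deposited values. For dim genes such as Muc15 and Muc16, whose signal cannot be told from background, they do not bound a difference in expression. They also hold for 1 scaling only, since median centring moved Muc2 from -0.23 to -0.32 ± 0.11 SE. All 8 of the 95% intervals lay inside a 2-fold change in either direction, and the widest was that of Muc4. The lowest bound of any member was -0.47 (Muc2), or 1.38-fold lower, and the highest 0.69 (Muc4), or 1.61-fold higher. Most mucins gave low signal, where few genes of any kind were called. Muc15 and Muc16 lay between the 0 and 25th percentile of genes by mean signal, where 2.58% of genes were called. Muc2, Muc5ac, Muc5b and Muc13 lay between the 25th and 50th percentile, where 12.3% were called, and Muc1 and Muc4 above the 75th, where 27.9% were. In bulk RNA of this kind, fewer cells that make a transcript and less of it per cell cannot be told apart.

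**Figure D1:**
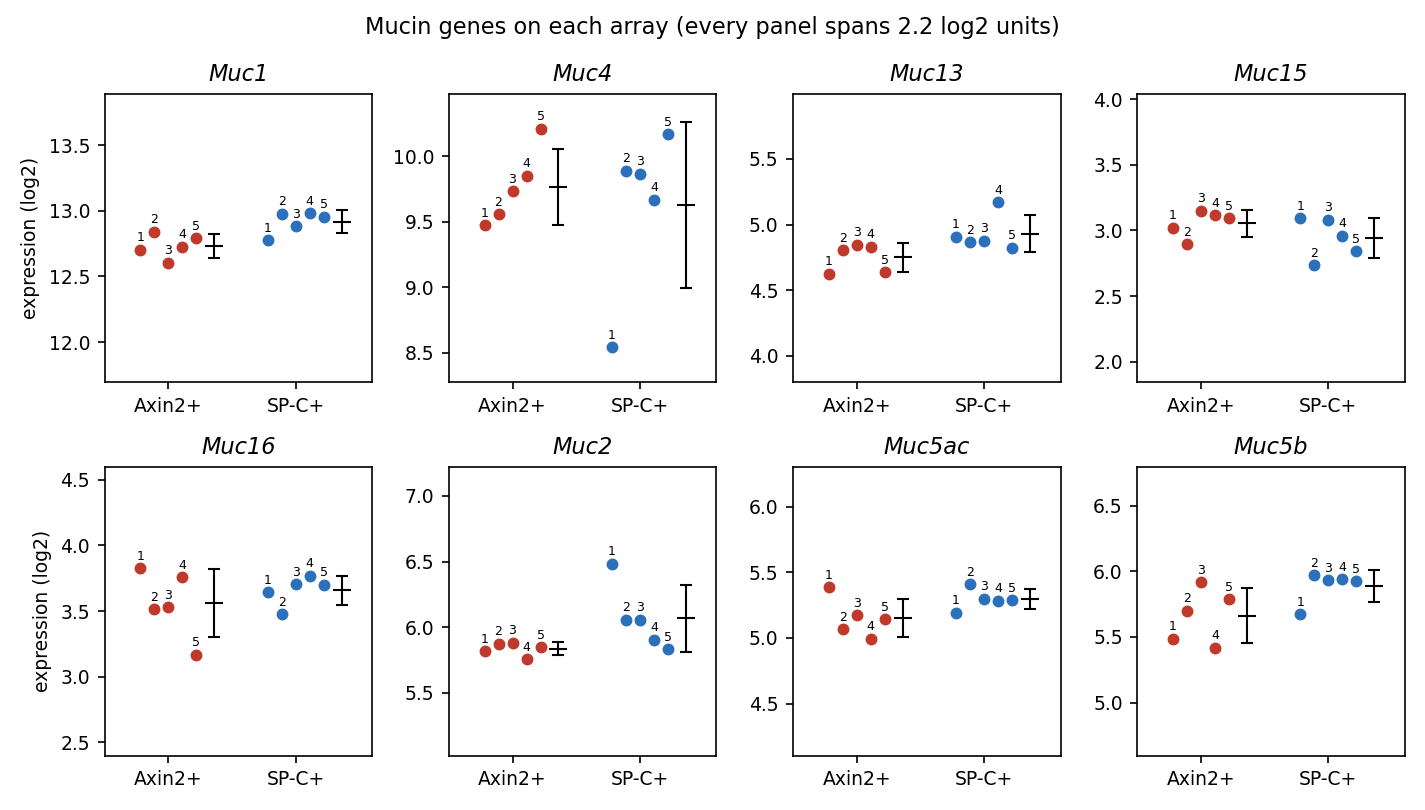
Expression (log2, vertical axis) of the 8 measured mucin genes in the 5 Axin2+ and 5 SP-C+ arrays, 1 point an array with its replicate number, and the mean ± SD beside each group. The groups overlap in every panel, and SP-C+ replicate 1 stands low for Muc4 (8.55) and Muc5b (5.68) and high for Muc2 (6.48).

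Among the membrane-bound mucins, Muc1 and Muc4 lay above the median gene on 10 of 10 arrays. The values of Muc1 were 12.70, 12.84, 12.60, 12.73 and 12.79 in Axin2+ replicates 1 to 5, against 12.78, 12.98, 12.88, 12.98 and 12.96 in SP-C+ replicates 1 to 5. The Axin2+ arrays were mostly lower, and the overlap came from SP-C+ replicate 1, which lay below 2 of the Axin2+ arrays. Means were 12.73 ± 0.09 in Axin2+ and 12.92 ± 0.09 in SP-C+ arrays (SD, n = 5 each), a difference of -0.18 ± 0.07 SE with an interval of -0.34 to -0.02. It did not pass in limma (adjusted p = 0.121), and an exact permutation test of this gene alone gave an unadjusted two-sided p of 0.0238, with 8 members tested in the same way.

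Muc1 belongs to the AEC2 markers used here, and in SP-C+ arrays all 29 of these exceeded the median gene. The mean of these markers was 12.34 to 12.51 in Axin2+ and 12.59 to 12.64 in SP-C+ arrays. By limma 0 of the 29 were higher in Axin2+ arrays and 9 lower, with a median of -0.18, the same as the difference of Muc1. Over all genes 8.61% were higher and 8.95% lower. Of the surfactant protein genes, Sftpd was lower at -0.32 ± 0.08 SE (adjusted p = 0.0167), while Sftpc, Sftpb and Sftpa1, at 0.10, -0.05 and -0.08, did not pass. Cebpa, a transcription factor of AEC2 maturation, was lower at -0.62 and Fasn, the fatty acid synthase gene, at -0.39.

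Muc4, a membrane mucin that binds the receptor ErbB2 in rat, had the widest SD of the 8, 0.29 in Axin2+ and 0.63 in SP-C+ arrays. It measured 9.47, 9.56, 9.73, 9.85 and 10.21 in Axin2+ arrays and 8.55, 9.89, 9.87, 9.67 and 10.17 in SP-C+ arrays. The 4 remaining SP-C+ arrays lay within the range of the Axin2+ arrays, and SP-C+ replicate 1 lay below all others. The difference was 0.14 ± 0.26 SE, with an interval of -0.42 to 0.69 (adjusted p = 0.781 in limma). Without SP-C+ replicate 1 its sign turned, to -0.13 ± 0.15 SE (adjusted p = 0.6205), and without SP-C+ replicate 5 it was 0.27 ± 0.26 SE. Without Axin2+ replicate 1 or 5 it was 0.21 or 0.02. Leaving out SP-C+ replicates 1, 2 and 3 together gave -0.15 ± 0.20 SE (adjusted p = 0.698).

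The only probe set annotated to Muc20 also names Muc4 and so was assigned to neither. In the RefSeq annotation (GRCm38.p6) the 2 genes overlap on opposite strands of chromosome 16. MUC20 binds the receptor MET in human cells. The shared probe set measured 8.36, 8.75, 6.91, 7.91 and 7.01 in Axin2+ arrays and 8.32, 8.11, 8.20, 9.03 and 8.53 in SP-C+ arrays. Axin2+ replicates 3 and 5 lay far below the other 8 arrays, while Muc4's own probe set, at 9.73 and 10.21, was not low in those 2. The difference was -0.65 ± 0.34 SE with an interval of -1.40 to 0.10 and did not pass (adjusted p = 0.303 in limma over all probe sets). This was the 1 interval among the mucin probe sets that reached beyond a 2-fold change.

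**Figure D2:**
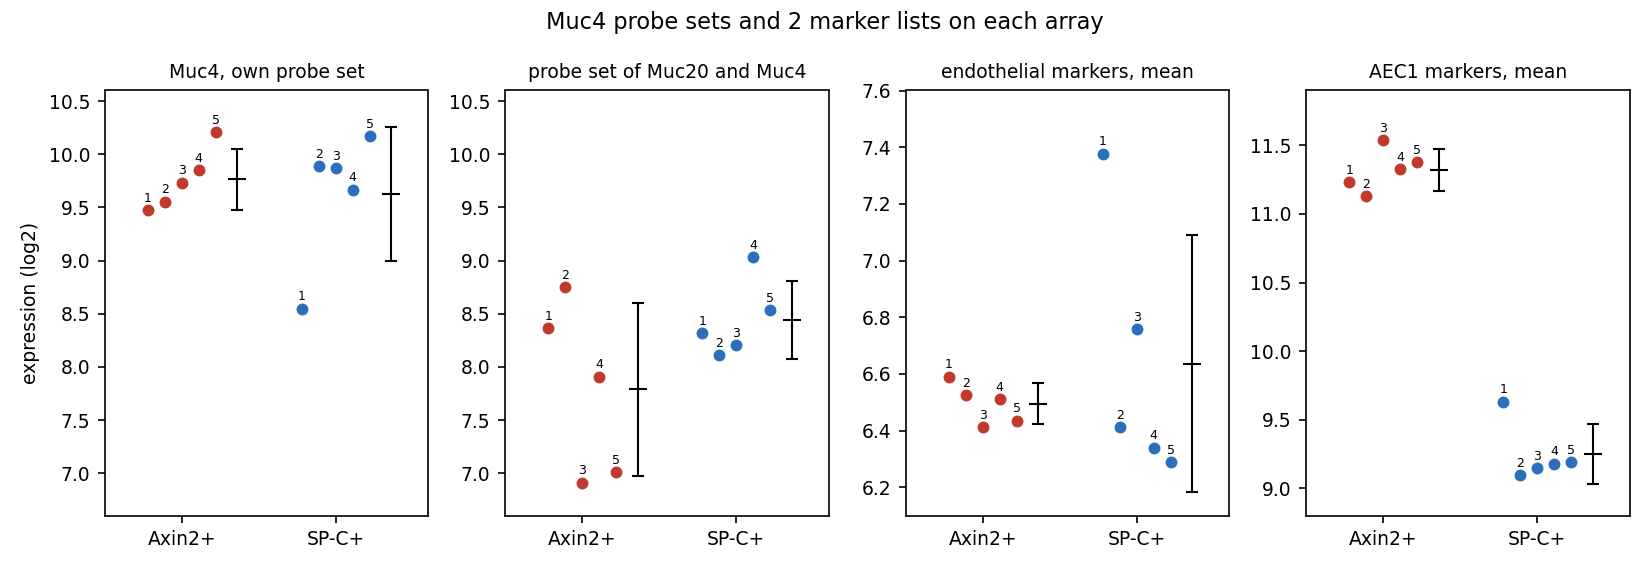
Expression (log2, vertical axes) of Muc4's own probe set, of the probe set shared by Muc20 and Muc4, and of the means of endothelial and AEC1 markers, 1 point an array with its replicate number and the mean ± SD beside each group. SP-C+ replicate 1 is lowest for Muc4 (8.55) and highest for endothelial markers (7.38), and Axin2+ replicates 3 and 5 are lowest for the shared probe set (6.91 and 7.01).

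The 250 bases before the annotated starts of Muc1 and Muc4 are shown because these were the 2 members of high signal, and because the pair differs in the motifs found. They are RefSeq sequence of GRCm38.p6, both on the plus strand, at chr3:89228806-89229055 for Muc1 and chr16:32735636-32735885 for Muc4. Capitals mark 2 of the 4 motifs searched on both strands.
Muc1: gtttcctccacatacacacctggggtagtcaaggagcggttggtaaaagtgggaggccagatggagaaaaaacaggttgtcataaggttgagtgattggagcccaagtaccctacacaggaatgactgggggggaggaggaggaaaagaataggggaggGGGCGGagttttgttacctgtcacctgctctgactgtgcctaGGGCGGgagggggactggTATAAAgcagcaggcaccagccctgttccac
Muc4: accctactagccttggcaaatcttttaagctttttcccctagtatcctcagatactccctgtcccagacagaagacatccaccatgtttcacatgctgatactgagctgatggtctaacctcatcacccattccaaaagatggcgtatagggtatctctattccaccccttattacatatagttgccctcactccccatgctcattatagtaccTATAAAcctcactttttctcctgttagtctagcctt
The motifs were the TATA box (TATAAA), the GC box bound by Sp1 (GGGCGG), a core bound by NKX2-1 (CAAGTG) and a forkhead site (TGTTTAC). Both windows hold a TATA box, from 31 to 26 bases before the start in Muc1 and from 36 to 31 in Muc4, as 12.4% of 32851 windows of this length did somewhere on either strand. Muc1 also holds 2 GC boxes, which 32.7% of windows hold at least once, and Muc4 holds 0. The window was 54.8% G and C in Muc1 and 43.6% in Muc4. Neither window matched the NKX2-1 core or the forkhead site, which 11.6% and 3.17% of windows hold, and these matches are descriptions of letters only. Sequence tables held a promoter window for 6 of the 9 genes.

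The other membrane-bound mucins gave low values on all arrays. Muc13, best known from the intestinal surface, measured 4.62, 4.81, 4.85, 4.83 and 4.64 in Axin2+ arrays and 4.91, 4.87, 4.88, 5.17 and 4.82 in SP-C+ arrays. The groups overlapped through SP-C+ replicate 5, and SP-C+ replicate 4 stood above the other 9 arrays. The limma fit gave -0.18 ± 0.09 SE (adjusted p = 0.193; exact permutation p = 0.0238, unadjusted), and -0.12 ± 0.08 SE without SP-C+ replicate 4. Muc16, which carries the CA125 antigen and binds mesothelin in human, measured 3.83, 3.52, 3.53, 3.76 and 3.17 in Axin2+ arrays and 3.64, 3.48, 3.70, 3.77 and 3.70 in SP-C+ arrays, or -0.10 ± 0.12 SE between the means (adjusted p = 0.639). Without Axin2+ replicate 5, the lowest array, the difference of Muc16 was -0.00089 ± 0.10 SE, and without Axin2+ replicate 1 or 4 it was -0.17 or -0.15. Muc15, a mucin first found in milk fat globule membranes, ranged from 2.89 to 3.15 in Axin2+ and from 2.74 to 3.09 in SP-C+ arrays, or 0.11 ± 0.09 SE between the means (adjusted p = 0.456), and 0.06 ± 0.09 SE without SP-C+ replicate 2. Values this low cannot be told from background here, since no detection calls were used.

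The signals of the gel-forming mucins did not separate the populations either. Muc5ac and Muc5b lay above the median gene on 0 of 10 arrays and Muc2 on 1 of 10. Whether these signals exceeded background was not known, so expression is not shown in either population. Muc2, Muc5ac and Muc5b lie next to each other on chromosome 7, with 0 protein-coding genes between neighbours in the RefSeq annotation. Muc5b, the main mucin of airway clearance in mice, measured 5.49, 5.70, 5.92, 5.42 and 5.79 in Axin2+ arrays and 5.68, 5.97, 5.93, 5.94 and 5.93 in SP-C+ arrays. The SP-C+ values were close together except for replicate 1, which lay among the Axin2+ arrays. The difference was -0.23 ± 0.10 SE, with an interval from -0.45 to just above 0 (adjusted p = 0.171 in limma).

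Muc5ac, a mucin of goblet cells that airway inflammation induces, measured 5.39, 5.07, 5.17, 4.99 and 5.14 in Axin2+ arrays and 5.19, 5.41, 5.30, 5.28 and 5.29 in SP-C+ arrays. Axin2+ replicate 1 reached into the SP-C+ range while the other 4 Axin2+ arrays lay below all SP-C+ arrays. That made -0.14 ± 0.08 SE (adjusted p = 0.299 by limma). Muc2, the main intestinal mucin, measured 5.82, 5.88, 5.88, 5.76 and 5.85 in Axin2+ arrays and 6.48, 6.06, 6.06, 5.91 and 5.83 in SP-C+ arrays, or -0.23 ± 0.11 SE between the means (adjusted p = 0.184 by limma). Its SD was 0.05 in Axin2+ and 0.25 in SP-C+ arrays (n = 5 each), and SP-C+ replicate 1 was the highest. The second Muc2 probe set also put SP-C+ replicate 1 highest, at 5.92, and gave a difference of -0.14 ± 0.13 SE (adjusted p = 0.597 over all probe sets). Of the settings tried, Muc2 passed on median-centred arrays and when SP-C+ replicates 4 and 5 were both left out (-0.36 ± 0.11 SE, adjusted p = 0.0389 in limma). In the second of these it was the 1 mucin gene called lower, against 9.82% of all genes. Without SP-C+ replicate 1 the difference of Muc2 was -0.13 ± 0.08 SE (adjusted p = 0.315), and without SP-C+ replicates 1, 2 and 3 it was -0.03 ± 0.08 SE (adjusted p = 0.851).

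**Figure D3:**
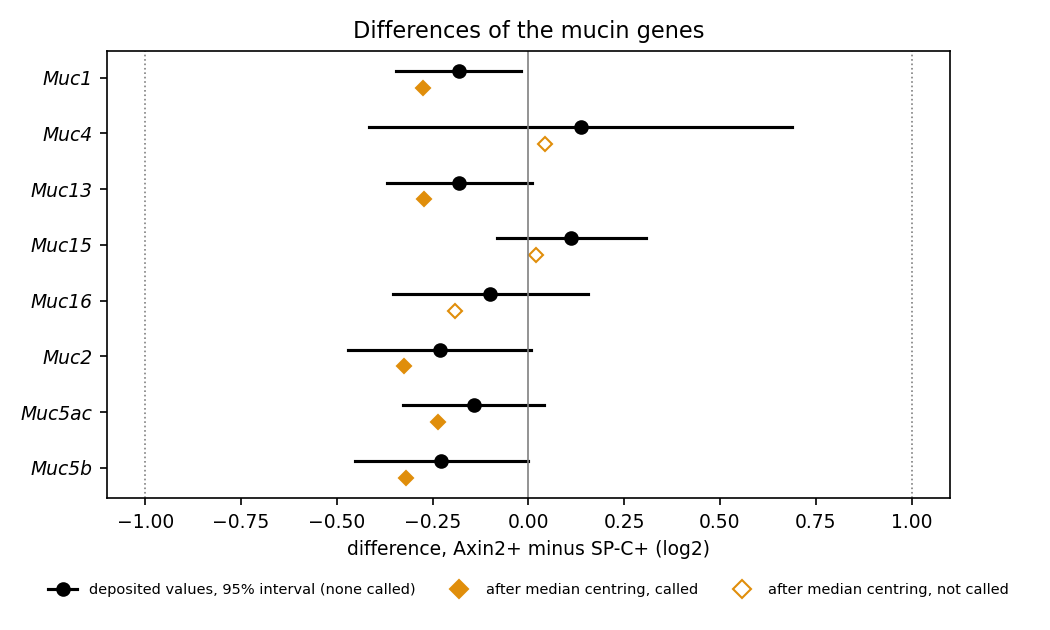
Difference of each mucin gene (log2, Axin2+ minus SP-C+, horizontal axis). Black points and lines are values from the deposited table with 95% intervals, diamonds are values after median centring (filled where called), and dotted lines mark a 2-fold change. All intervals lie between -0.47 and 0.69, and 5 diamonds are filled.

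The calls changed with the scaling of the arrays. Medians over genes were higher in all Axin2+ arrays (6.37 to 6.43) than in SP-C+ arrays (6.27 to 6.32). Centring every array on this median took that offset out, and the source of the offset was not tested. The median difference of all genes moved by -0.09, to -0.14. Centring called 1561 genes higher and 4412 lower, against 1909 and 1985 on the deposited values. Muc1 (-0.28, adjusted p = 0.0199), Muc2 (-0.32, adjusted p = 0.0411), Muc5ac (-0.24, adjusted p = 0.0494), Muc5b (-0.32, adjusted p = 0.0423) and Muc13 (-0.27, adjusted p = 0.0391) were then called lower in limma, 5 of 8 members against 19.9% of all genes. Quantile normalization called 0 of them, and the sizes after either scaling stayed at or under 0.32.

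Some club cell markers, most ciliated cell markers and all AEC1 markers were higher in Axin2+ arrays, while no mucin was called on the deposited values. Among 26 goblet cell and mucus layer genes 2 were higher, near the share over all genes (8.61% higher and 8.95% lower). Of 18 club cell markers 8 were higher and 0 lower in Axin2+ arrays, with a median of 0.50, and Scgb1a1, the club cell secretoglobin, rose by 2.73. Of 24 ciliated cell markers 20 were higher and 1 lower (Ccno, a cyclin-like gene of centriole amplification), with a median of 1.95, and their mean was 7.85 to 8.11 in Axin2+ and 5.81 to 5.95 in SP-C+ arrays. Of 25 AEC1 markers 25 were higher, with a median of 2.27, and their mean was 11.13 to 11.54 in Axin2+ and 9.09 to 9.63 in SP-C+ arrays. The club marker mean was 7.83 to 8.19 in Axin2+ and 6.89 to 7.22 in SP-C+ arrays. The part of these cell types in any mucin value was not tested. Muc4 and Muc16, which are made by ciliated and other surface cells of human airways, were at 0.14 and -0.10 in the same arrays. Among further marker lists, 4 of 10 mesothelial, 4 of 10 neuroendocrine and 2 of 8 basal cell markers were higher and 0, 0 and 1 lower. For 25 leukocyte, 15 endothelial and 16 mesenchymal markers 0 were higher in limma, and 2, 0 and 1 were lower.

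Of 26 goblet cell and mucus layer genes on the array 2 rose, 0 fell and 24 missed the threshold, with a median of -0.03, where 8.61% of all genes were higher and 8.95% lower. Only 5 of the 26 exceeded the median gene in SP-C+ arrays. The 2 were Tgm2, a widely used crosslinking transglutaminase, at 9.59 ± 0.29 in Axin2+ and 7.47 ± 0.42 in SP-C+ arrays (2.12 ± 0.19 SE, adjusted p = 5.43e-06), and Bpifb1, a secreted protein of airway secretory cells, at 6.76 ± 0.74 in Axin2+ and 5.53 ± 0.11 in SP-C+ arrays (1.23 ± 0.27 SE, adjusted p = 0.00732). The call of Bpifb1 was lost when SP-C+ replicates 1, 2 and 3 were left out together (adjusted p = 0.0795). The goblet cell regulator genes Spdef and Foxa3 were at 0.02 and -0.26, and the trefoil factor genes Tff1, Tff2 and Tff3 at -0.15, -0.24 and -0.11. None of these 5 passed in limma, at adjusted p-values of 0.258 or higher.

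Genes of protein folding and granule secretion are used by airway cells for mucins and by AEC2s for surfactant. The list of these also holds ion channel and transporter genes, of which Ano1 was called higher and Slc12a2 and Slc26a9 lower. Of 37 measured, 6 were higher and 10 lower, with a median of -0.14, where 8.61% of all genes were higher and 8.95% lower. After median centring 17 were lower, against 19.9% of all genes. In SP-C+ arrays 31 of the 37 exceeded the median gene. Above the 75th percentile of mean signal 27.9% of genes were called. Agr3, a disulfide isomerase of ciliated airway cells, was at 6.76 ± 0.35 in Axin2+ and 3.35 ± 0.36 in SP-C+ arrays (SD, n = 5 each), a rise of 3.41 ± 0.19 SE (adjusted p = 5.43e-08 in limma). Agr2, its relative that Muc2 and Muc5ac need for folding in mice, rose by 0.73 ± 0.16 SE (adjusted p = 0.00668), and Stx11, a syntaxin of granule release, by 2.59 ± 0.18 SE. Unc13d, which primes granules for release, rose by 1.15 ± 0.12 SE. The largest falls of the list were those of Sytl5, a Rab27 effector gene (-1.17 ± 0.11 SE), and the vesicle GTPase gene Rab3a (-0.90 ± 0.10). Of the same gene families, Sytl2 (-0.73 ± 0.11) and Rab27a (-0.57 ± 0.12) were lower, and Sytl4, Sytl1, Rab3d and Rab27b, at 0.03, -0.21, -0.20 and -0.34, did not pass. Ern2, a stress sensor of mucous cells, was at -0.14 and did not pass (adjusted p = 0.348 in limma).

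Of 43 enzymes that build O-linked sugars, 4 were higher and 5 lower, with a median of -0.08, where 8.61% of all genes were higher and 8.95% lower. Gcnt2, a branching enzyme, was at 9.05 ± 0.33 in Axin2+ and 7.27 ± 0.38 in SP-C+ arrays (1.78 ± 0.19 SE, adjusted p = 2.40e-05), and Galnt18, of the family that adds the first sugar, rose by 1.67 ± 0.15 SE. Galnt13, of the same family, was lower at -1.33 ± 0.24 SE, and the sialyltransferase gene St6galnac3 at -1.28 ± 0.20 SE. With SP-C+ replicates 1, 2 and 3 left out the call of Galnt13 was lost (adjusted p = 0.0850 by limma), 2 enzymes were higher and 8 lower. C1galt1, which makes the core of most mucin sugars, was bright and at -0.15 ± 0.09 SE (adjusted p = 0.283).

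**Figure D4:**
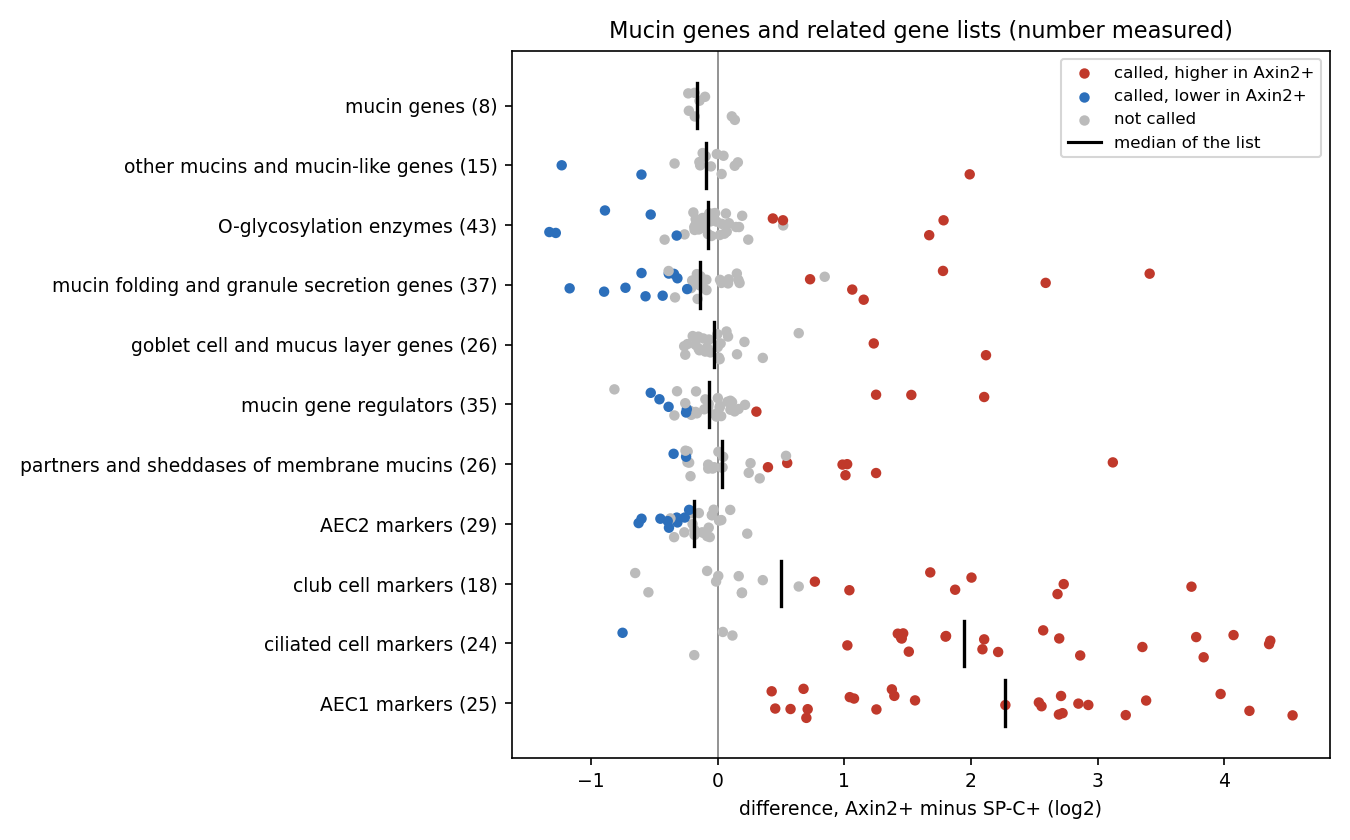
Differences (log2, Axin2+ minus SP-C+, horizontal axis) of all measured genes of each list, 1 point a gene, with the number measured in brackets and a bar at the list median. The 8 mucin genes lie close to 0 on the deposited values, between -0.23 and 0.14, while club, ciliated and AEC1 markers reach above 3. So do Agr3 (3.41) of the folding and secretion genes and Msln (3.12) of the partners.

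Further mucins and mucin-like surface genes gave 1 higher and 2 lower of 15, with a median of -0.09. Over all genes 8.61% were higher and 8.95% lower. Podxl, the anti-adhesive sialomucin podocalyxin, rose by 1.99 ± 0.18 SE, to 9.39 ± 0.26 in Axin2+ against 7.40 ± 0.40 in SP-C+ arrays. Parm1, a mucin-like membrane gene, was lower at -1.23 ± 0.22 SE, but lost its call once SP-C+ replicates 1, 2 and 3 were left out (adjusted p = 0.0581 by limma). Prg4, the lubricant proteoglycan lubricin, was lower at -0.60 ± 0.19 SE (adjusted p = 0.0442), a call lost in 8 of 10 fits that each dropped 1 array. The gastric mucin gene Muc6, a neighbour of Muc2, was at -0.05, and Muc19 at -0.14.

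Among partners and sheddases of membrane mucins, 7 of 26 were higher and 2 lower, with a median of 0.04. Over all genes 8.61% were higher and 8.95% lower. After median centring 5 of the list were lower, against 19.9% of all genes. In SP-C+ arrays 21 of the 26 exceeded the median gene. Msln, mesothelin, the partner of MUC16 in human, was at 9.53 ± 0.58 in Axin2+ and 6.42 ± 0.23 in SP-C+ arrays (3.12 ± 0.23 SE, adjusted p = 7.12e-07). Egfr, a receptor that binds MUC1 in human cells, rose by 1.25 ± 0.12 SE and the sheddase gene Adam10 by 0.55 ± 0.09. Of the other protease genes in the list, Mmp14 rose by 1.02 ± 0.13 SE. Adam17, at -0.24 ± 0.08 SE (adjusted p = 0.0534 in limma), and Mmp7, at 0.03, did not pass. Siglece, a sialic acid receptor gene of leukocytes, was lower at -0.35 ± 0.08 SE and Erbb3 at -0.25 ± 0.08 (adjusted p = 0.0378), and dropping 1 array lost the Erbb3 call in 8 of 10 fits. Erbb2 and Met were at -0.07 and -0.22 and did not pass.

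Regulators of mucin genes gave 4 higher and 5 lower of 35, with a median of -0.07, where 8.61% of all genes were higher and 8.95% lower. Lower ones numbered 10 after median centring, where 19.9% of all genes were lower, and 2 without Axin2+ replicate 3. In SP-C+ arrays 32 of the 35 exceeded the median gene. The 4 higher include Foxj1, which drives motile cilia and not mucin synthesis and also stands among the ciliated cell markers. Foxj1 rose by 2.10 ± 0.18 SE, and Sox2, a transcription factor of airway epithelium, by 1.53 ± 0.16. The ETS factor genes Etv1 (-0.53 ± 0.14 SE) and Elf5 (-0.46 ± 0.07) were lower, and the Etv1 call was lost without Axin2+ replicate 3 (adjusted p = 0.0557 by limma) or when SP-C+ replicates 4 and 5 were dropped (adjusted p = 0.102). Nkx2-1, the lung lineage factor, was at -0.02, and the cytokine receptor and signalling genes Il4ra and Stat6 were at 0.03 and 0.02, and these 3 did not pass.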

How the data were processed

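Deposited values were log2 expression, as normalized by the authors, for 41345 probe sets. According to the submitters' processing notes the tools were oligo, RMA and limma (versions not given), and base 2 was inferred from a range of 1.69 to 14.16. The sources used here give no genome build. Gene names came from the platform annotation, which gave 1 symbol to 23521 probe sets, several to 1814 and none to 16010. Where a gene had several probe sets, the brightest on average was kept, which left 22180 genes, and a probe set with several symbols stood for none.

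Groups came from the sample titles. The fit used R 4.3.3 and limma 3.58.1, with lmFit followed by eBayes, without covariates and two-sided, with Benjamini-Hochberg adjustment over all genes. On simulated data (22180 genes, 200 of them changed, independent normal noise), it found 46% of differences of 0.5, 90% at 1 and 98% at 2 log2 units. Of the simulated calls 5.65% were false. In the measured arrays 17.6% of genes were called, so these rates need not hold there. Exact permutation tests ran over the 252 assignments of the arrays. Of 386 entries in the 17 gene lists, 366 matched a measured gene, and some genes stand in more than 1 list. The list of Y-linked genes served as a covariate. List counts and medians are descriptions, with no set test. All members are named, with up to 2 called rises and 2 called falls, by size, from each mucin-related list, and other genes named for their role were chosen after their values were seen. No member was called, so no gene was named for likeness. The members and lists were chosen with earlier results of these data known. Alternatives were other scalings, filters on dim genes, probe set rules, variance models, arrays left out, covariates and thresholds. No scan dates were used. The number of arrays limits the precision. Signal over background was not known.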

Additional observations from a re-analysis of the deposited data

Results flagged for a closer look

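Among 96 groups of 5 values (mucin genes, named genes and list means) examined for a sample far from the others, 5 had one. Chance alone gives about 1 in 20 for separate groups. These groups share arrays and genes, and all but that of Muc13 fell on SP-C+ replicate 1, so the count cannot be weighed against chance. Muc5b in SP-C+ replicate 1 was 5.68, below the other SP-C+ arrays at 5.93 to 5.97. Muc13 in SP-C+ replicate 4 was 5.17, above the other SP-C+ arrays at 4.82 to 4.91. The remaining 3 were in SP-C+ replicate 1 and all high: Siglece at 5.55, the AEC1 marker mean at 9.63 and the leukocyte marker mean at 5.84.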

How the results depend on the processing

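The count of mucin genes higher in Axin2+ was 0 under all 24 alternatives run, and that of lower ones was 0 under 22 of them, the exceptions being 5 with median centring and 1 without SP-C+ replicates 4 and 5. Without 1 array Muc4 ranged from -0.13 to 0.27. It changed sign without SP-C+ replicate 1 (-0.13) and without SP-C+ replicates 1, 2 and 3 (-0.15), and no other mucin gene did under any alternative. Leaving out 1 array gave 0 to 0 mucin genes either way. The causes of the changes below were not tested, apart from stricter thresholds and fewer samples, which lower counts by construction. Other mucins numbered 2 higher without SP-C+ replicates 1, 2 and 3, and lower ones 0 there, 1 over all probe sets, 1 with the Y-linked covariate, 1 at an adjusted p under 0.01, 1 at 2-fold and 1 to 2 without 1 array (1 without any Axin2+ array or SP-C+ replicate 1 or 2). O-glycosylation enzymes numbered 2 higher and 8 lower without SP-C+ replicates 1, 2 and 3, and 2 and 2 at 2-fold. Folding and secretion genes numbered 17 lower with median centring and 1 at 2-fold. Goblet genes numbered 1 higher above the 50th percentile and 1 higher and 1 lower without SP-C+ replicates 1, 2 and 3, with 2 lower with median centring and 0 to 1 lower without 1 array (1 without Axin2+ replicate 5). Lower regulators numbered 10 with median centring, 8 without SP-C+ replicates 4 and 5, 3 over all probe sets, 2 with the Y-linked covariate, 2 at an adjusted p under 0.01, 0 at 2-fold and 2 to 7 without 1 array (2 without Axin2+ replicate 3, and 3 without Axin2+ replicate 1, 2 or 5 or SP-C+ replicate 3). Partners numbered 4 higher at 2-fold. Lower partners numbered 5 with median centring, 4 with an intensity trend, 4 without SP-C+ replicates 4 and 5, 1 with quantile normalization, 1 over all probe sets, 1 with the Y-linked covariate, 1 at an adjusted p under 0.01, 0 at 2-fold and 1 to 3 without 1 array (1 without Axin2+ replicate 1, 2, 3 or 4 or SP-C+ replicate 2, 3 or 5). No pairing by replicate number showed in the values. Deviations of same-numbered arrays correlated at -0.23 to 0.01, and 0 of 5 Axin2+ arrays correlated best with their own number. Such correlations cannot show that same-numbered samples were collected or processed apart. With the replicate number as a block 0 mucin genes were called, lower regulators numbered 3 and lower partners 1, and all genes called numbered 2979, against 3894.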
